A study of Mus musculus with 6 samples.

Results

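The genes described here are 10 components of the NF-kB system: the subunit genes Nfkb1, Nfkb2, Rel, Rela and Relb, and the inhibitor genes Nfkbia, Nfkbie, Nfkbiz, Tnfaip3 and Bcl3. Members were all non-control probes whose gene name in the scanner files equals one of these symbols, which gave 13 of the 55681 probes on the array and 10 of its 34650 gene names. Transcripts were measured in mouse bone marrow cells sorted as CD48-negative KSL cells (positive for c-Kit and Sca-1 and without lineage markers), a population rich in blood stem cells. The groups were wild-type mice (WT, 3 arrays) and mice labelled Spred1 KO (KO, 3 arrays), all of strain C57BL/6. The sources used here give neither the kind of allele nor the age of the animals, and the labels do not say whether the 3 samples of a genotype came from separate animals. The p-values weigh the genotype difference only against the spread of these samples, and that spread may be technical. The Spred1 protein restrains Ras and ERK signalling, and the comparison asks how transcripts differ without it.

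NF-kB transcription factors are dimers of Rel family proteins. In resting cells the dimers are held in the cytoplasm by inhibitors of the IkB family, and signals from cytokine and pattern-recognition receptors activate the IkB kinase complex, which marks the inhibitors for destruction and frees the dimers. Several of the induced genes encode inhibitors, so the pathway restrains itself, and in stem cells it is known for its part in survival and in responses to inflammation.

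Promoter windows of the members were examined for the sequence that NF-kB dimers bind. RefSeq windows on build GRCm38.p6, from 250 bases before to 50 after an annotated transcript start, were found for 7 of the 10 members, 10 windows in all. The kappaB consensus, searched on both strands as the only motif, matched in 8 of these 10 windows and in 6 of the 7 genes. It matched in 1480 of all 32851 windows of the same length (4.51%). Rela and the second start of Tnfaip3 had no match in their windows. Windows of one gene are not independent, and the windows of a pair of Nfkb2 starts share sequence. The following stretches of 60 bases, 5′ to 3′ on the strand of the gene, show the matches closest to a start, with the matching bases in capitals.
Nfkb2: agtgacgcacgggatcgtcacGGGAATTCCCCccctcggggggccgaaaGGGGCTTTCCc
Rel: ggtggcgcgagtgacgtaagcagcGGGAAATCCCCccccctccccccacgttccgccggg
Nfkbia: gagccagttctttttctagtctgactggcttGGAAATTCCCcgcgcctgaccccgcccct
Nfkbie: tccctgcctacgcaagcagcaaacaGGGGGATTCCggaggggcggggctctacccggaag
Tnfaip3: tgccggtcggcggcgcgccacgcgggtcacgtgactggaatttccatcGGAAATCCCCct

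The stretches lie at chr19:46304677-46304736 on the plus strand for the first Nfkb2 start and at chr17:45555569-45555628 on the plus strand for Nfkbie. On the minus strand they lie at chr11:23771026-23771085 for Rel, chr12:55492648-55492707 for Nfkbia and chr10:19015411-19015470 for the first Tnfaip3 start. Bcl3 held 1 match, GGGAAGTCCC, which begins 2 bases after its annotated start. A match describes the letters and does not show that a factor binds there.

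**Figure D1:**
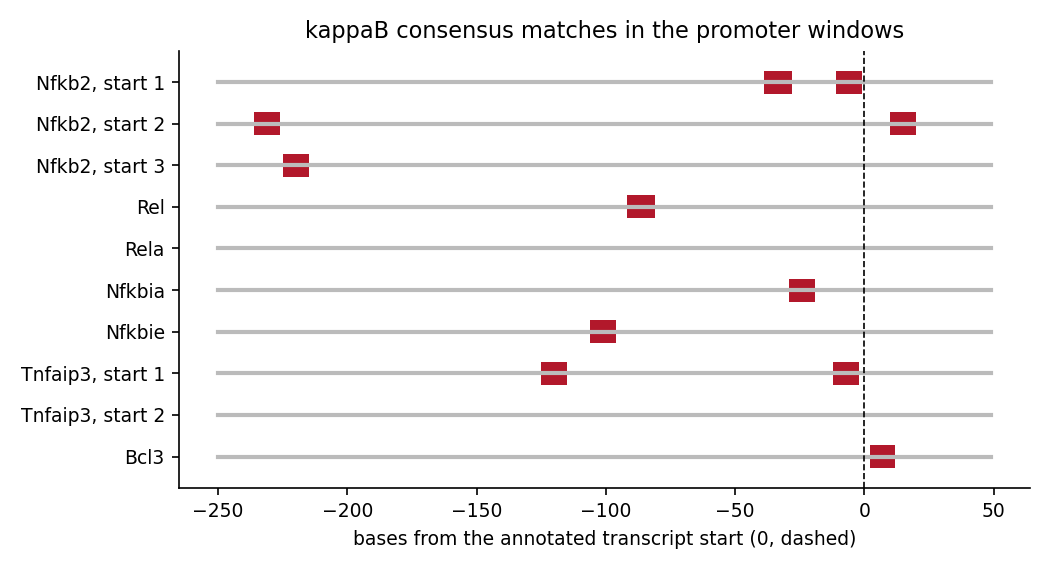
Positions of kappaB consensus matches (red blocks) in the 10 promoter windows (grey lines) of 7 members, in bases from the annotated transcript start at 0. Matches occur in 8 windows; Rela and the second Tnfaip3 start have none.

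Between 28629 and 29278 probes per array were well above background, Pearson correlations between arrays ran from 0.988 to 0.995 across genes (genes are no independent replicates), and the median SD within a genotype was 0.14 on the log2 scale. The gate genes Kit, Ly6a (which encodes Sca-1) and Ptprc were well above background on all 6 arrays. So was Cd48, whose surface protein the gate excludes, at log2 values between -0.67 and 0.20 that overlapped between genotypes. The 3 probes of Spred1 differed by -0.98 ± 0.095, -0.14 ± 0.10 and 2.44 ± 0.16 (SE) between KO and WT. Their adjusted p in limma's fit over probes was 0.0543, 0.59 and 0.0133, and the last was among the 9 of 27798 probes under 0.05. The sources used here do not name the deleted part, so none of the 3 was taken as a check of the labels. WT replicate 1 stood apart in its summed neutrophil marker signal, 103 against 338 to 530 on the other arrays. Its summed erythroid marker signal was also the lowest, 16.5 against 28.8 to 53.4. The summed signal is the sum of linear signals divided by the 75th percentile of the array.

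No member passed the comparison of KO with WT. Of the 10 genes, 9 were well above background on all 6 arrays and were tested, and 0 of the 9 passed in limma's fit over 19605 genes (Benjamini-Hochberg adjusted p under 0.05), where 0.0204% of all genes passed. At the level of single probes, 0 of 12 member probes passed over 27798 probes, against 0.0324% of all. At an unadjusted limma p under 0.05 there was 1 member, Nfkbiz, of 9, against 12.2% of all genes, and it was also the only 1 of 9 without overlap between the genotypes, against 19.6% of all. The unadjusted count was 2 of 9 in 3 alternatives. It took in Bcl3 with the replicate number as a block (10.9% of all genes), Relb without WT replicate 3 (10.2%) and Nfkbia without KO replicate 1 (8.33%). The median difference of the 9 members was -0.059 on the log2 scale, beside -0.0063 over all genes.

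Levels are given as log2 signal relative to the 75th percentile of each array, which is set to 0. They serve to compare arrays for 1 probe and not to compare probes. Differences are KO minus WT with the SE and adjusted p of limma's fit over all genes.

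Nfkb1 encodes p105, the precursor of the DNA-binding subunit p50. Its brighter probe, at chr3:135254550-135254609 on build mm9, read 0.87, 0.56 and 0.75 in WT and 0.64, 0.80 and 0.84 in KO. The genotypes overlapped, and the difference was 0.04 ± 0.11 SE (adjusted p = 0.905), with a 95% interval from -0.23 to 0.30. The second probe, at chr3:135247621-135247680, lay between -0.05 and 0.02 in WT and between -0.25 and 0.07 in KO. It differed by -0.11 ± 0.11 SE in the fit over probes, so the signs of the pair differ while both intervals include 0.

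Nfkb2 encodes p100, which holds RelB in the cytoplasm until it is processed to p52 in the alternative pathway. It read 0.69, 0.78 and 0.96 in WT and 0.64, 0.77 and 0.83 in KO. The difference of -0.06 ± 0.10 SE (adjusted p = 0.814) was smaller than the SD of 0.13 among the WT arrays. Its probe lies within chr19:46386146-46386285.

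Rela encodes p65, the transactivating subunit of the classical dimer. Signal was 5.34, 5.56 and 5.53 in WT and 5.37, 5.61 and 5.44 in KO for a probe at chr19:5648070-5648129. The genotypes overlapped, with a log2 difference of -0.01 ± 0.11 SE. KO stood at 99.6% of the WT signal, and the 95% interval of the ratio ran from 0.837 to 1.19 (adjusted p = 0.985).

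Relb encodes the partner of p52 in the alternative pathway and was covered by 3 probes. The brightest, at chr7:20191722-20191781, read 0.74, 0.85 and 1.13 in WT and 1.12, 0.98 and 1.09 in KO. WT replicates 1 and 2 lay below every KO array and WT replicate 3 above them. The difference was 0.16 ± 0.12 SE (adjusted p = 0.582), 0.25 within slide 1, which carried replicates 1 and 2 of both genotypes, and -0.04 within slide 2, which carried replicate 3. An overlapping probe at chr7:20191773-20191832 gave 0.21 ± 0.13 SE in the fit over probes, and since it shares bases with the first the pair is not independent. A further probe, at chr7:20203058-20203117, gave -0.02 ± 0.20 SE.

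Rel encodes c-Rel, the subunit studied most in lymphocytes. Its only probe was well above background on 0 of the 6 arrays, so it has no fold and was not tested.

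**Figure D2:**
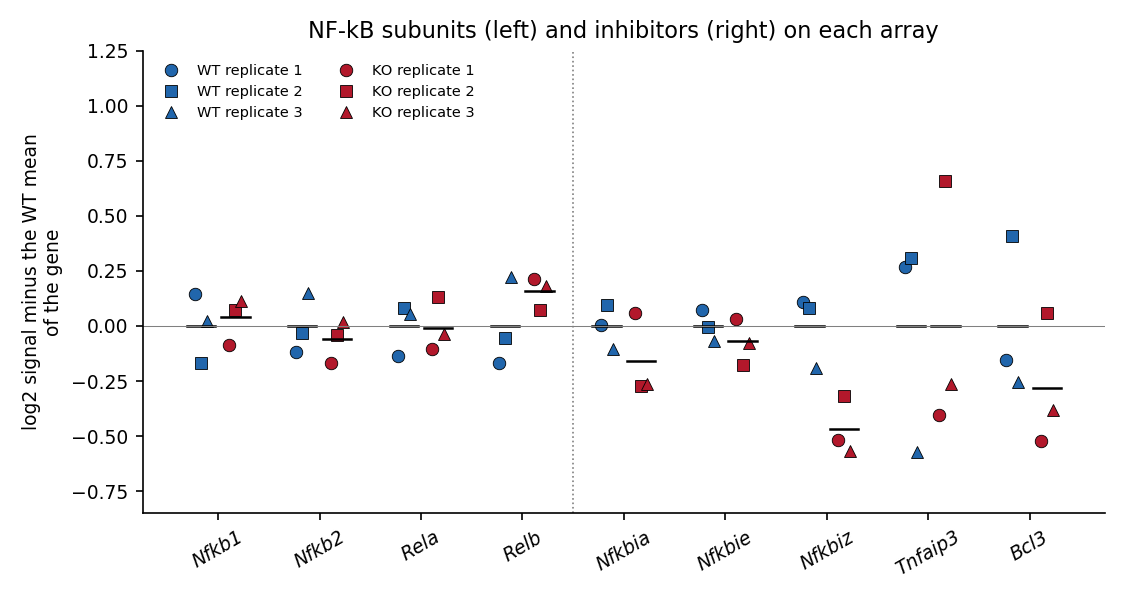
Log2 signal minus the WT mean for the 9 members above background, on each array (blue WT, red KO; circles, squares and triangles are replicates 1, 2 and 3; short lines are genotype means). For Nfkbiz alone among the 9, the 3 KO arrays lie below the 3 WT arrays.

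Among the inhibitors, Nfkbiz had the lowest value in KO relative to WT. It encodes IkB-zeta, a nuclear protein of the IkB family that is itself induced by NF-kB and is needed for transcription of a set of secondary response genes. The probe that reads it, designed at chr16:55817859-55817918 on the minus strand of mm9, is shown because the largest member difference rests on it alone, beside that of Nfkbia, which reads the classical inhibitor.
Nfkbiz: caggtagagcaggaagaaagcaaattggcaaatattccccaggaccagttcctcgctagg
Nfkbia: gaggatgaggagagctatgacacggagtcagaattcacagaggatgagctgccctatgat

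Nfkbiz read 0.80, 0.77 and 0.50 in WT and 0.17, 0.37 and 0.12 in KO. Every KO array lay below every WT array, which holds for 10% of all genes in that direction. KO stood at 72.3% of the WT signal (log2 difference -0.47 ± 0.12 SE, 95% interval -0.75 to -0.19). Its unadjusted limma p was 0.00576, rank 303 among 19605 genes, and the adjusted p of 0.363 did not pass. The exact two-sided permutation p was 0.1, the smallest that 3 against 3 arrays allow. The difference was -0.51 within slide 1 and -0.39 within slide 2, and between -0.56 and -0.42 with each array left out in turn.

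Of 7 marker lists of other cell types, 2 had summed signals that did not overlap between the genotypes. The monocyte and macrophage markers, 11 of 12 listed genes found and none passing, summed to 42.7 to 45.6 in WT and to 47.5 to 52.7 in KO. Itgam made up most of that sum, and the other 10 genes summed to 8.16 to 11.8 in WT and 9.56 to 12.6 in KO, which overlap. Gene by gene, 9 of the 11 were higher in KO and 2 lower, beside 9562 of 19605 higher over all genes. The differences ran from Lyz2 at -0.36 ± 0.17 SE to Mrc1 at 0.77 ± 0.34 SE. Relative to the WT mean of each gene, the median of the 11 was -0.53, 0.20 and 0.40 on the WT arrays. It was 0.31, 0.57 and 0.21 on the KO arrays. WT replicate 1 was thus the lowest array, and WT replicate 3 lay within the range of KO. In 3 of the 11 the KO arrays lay above every WT array and in 0 below. Of all 19605 genes, 1866 lay above and 1967 below, 19.6% in either direction. The dendritic cell markers, 10 of 10 found, 7 tested and none passing, summed to 201 to 227 in WT and to 228 to 261 in KO. Of the 7 tested, 5 were higher in KO and 2 lower, from -0.44 for Zbtb46 to 0.29 for Siglech. Xcr1 and Clec9a, also listed, were well above background on 0 of the 6 arrays. Siglech made up most of this sum, and the other 9 genes summed to 52.4 to 68.1 in WT and 60.5 to 68.9 in KO, which overlap. Leaving out the brightest gene was chosen after the values were seen. The sums of neutrophil, B cell, T and NK cell, erythroid and megakaryocyte markers overlapped, at 103 to 530, 11.6 to 13.8, 17 to 19.4, 16.5 to 53.4 and 62.2 to 69.2 in WT and 338 to 442, 12.2 to 14.7, 17.8 to 20.7, 28.8 to 32.1 and 57 to 64.3 in KO. The part of these cell types in the Nfkbiz value was not tested, and in bulk samples fewer cells of a type and less RNA per cell cannot be told apart. Without WT replicate 1, the array low in neutrophil and erythroid markers, Nfkbiz measured -0.42.

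Nfkbia encodes IkB-alpha, the inhibitor that NF-kB induces and that ends its own activity. It read 4.51, 4.60 and 4.40 in WT and 4.56, 4.23 and 4.24 in KO. KO replicates 2 and 3 lay below every WT array and KO replicate 1 among them. The difference was -0.16 ± 0.12 SE (adjusted p = 0.575), and -0.27 without KO replicate 1. Its probe lies within chr12:56590945-56591440 on mm9. By root mean square distance over the 6 arrays, with each gene centred on its mean, the named gene nearest to Nfkbia was Tfcp2 (distance 0.035, second of 13268 candidates), which encodes a CP2-type transcription factor. The other two of the nearest 3 were probes for intervals without a gene symbol.

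Nfkbie encodes IkB-epsilon, which also binds Rel dimers in the cytoplasm. It read 1.61, 1.53 and 1.47 in WT and 1.57, 1.36 and 1.46 in KO, for a probe at chr17:45700000-45700059. The genotypes overlapped, and the difference of -0.07 ± 0.091 SE (adjusted p = 0.736) had an interval from -0.29 to 0.14. Its SD over the 6 arrays, 0.088, was the smallest among the members.

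Tnfaip3 encodes A20, a ubiquitin-editing enzyme that shuts off signalling upstream of the IkB kinases. It read 2.97, 3.01 and 2.13 in WT and 2.30, 3.36 and 2.44 in KO, for a probe at chr10:18720776-18720835. The highest and the second-highest array were KO replicate 2 and WT replicate 2, and the lowest was WT replicate 3. The genotype means were 2.71 ± 0.50 (SD, n = 3) in WT and 2.70 ± 0.58 (SD, n = 3) in KO. The difference was 0.00 ± 0.35 SE (adjusted p = 0.998), and its interval, from -0.83 to 0.82, includes differences of either sign. With each array left out the value ran from -0.33 without KO replicate 2 to 0.20 without KO replicate 1.

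Bcl3 encodes a nuclear IkB family protein that binds p50 and p52 dimers. It read 2.80, 3.36 and 2.70 in WT and 2.43, 3.01 and 2.57 in KO, for a probe at chr7:20393826-20393885. Replicate 2 was again the highest in each genotype. The difference was -0.28 ± 0.22 SE (adjusted p = 0.591), -0.08 without WT replicate 2 and -0.45 without KO replicate 2.

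**Figure D3:**
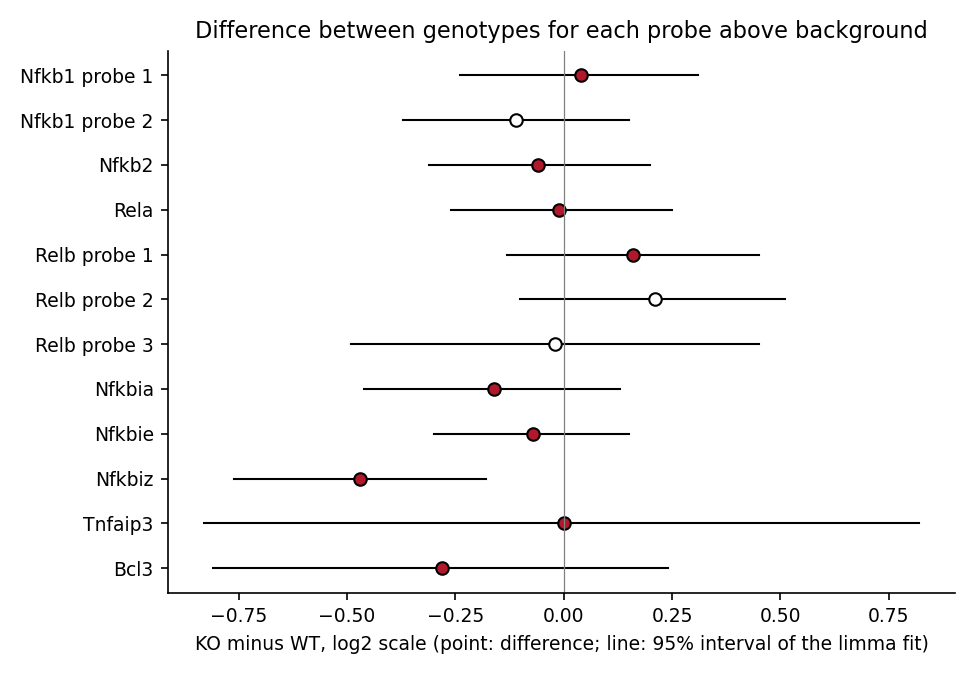
KO minus WT difference on the log2 scale (points) and its 95% interval (lines) for the 12 member probes above background, in the fit over probes (filled points are the probe used for the gene). The interval of Nfkbiz excludes 0 before adjustment; Tnfaip3 has the widest interval.

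The wider pathway was described with 4 lists. Of 19 tested receptor and adaptor genes, 0 passed, and 1 was higher and 1 lower at an unadjusted p under 0.05, where 7.06% of all genes were higher and 5.12% lower. The list median was -0.012. Ripk1, which encodes a kinase and scaffold of the TNF receptor complex, read 0.65, 0.61 and 0.66 in WT and 0.36, 0.41 and 0.23 in KO, with a difference of -0.31 ± 0.084 SE (adjusted p = 0.363) and no overlap. Traf6, which encodes a ubiquitin ligase downstream of interleukin-1 and Toll-like receptors, differed in the other direction by 0.34 ± 0.098 SE (adjusted p = 0.363), also without overlap. Irak1, which encodes a kinase upstream of TRAF6, differed by -0.18 ± 0.084 SE (adjusted p = 0.438), again without overlap. In the whole list, 2 genes were higher and 5 lower without overlap, against 19.6% of all genes in either direction. The receptor gene Cd40 was well above background on 0 of the 6 arrays.

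Of 17 kinase and ubiquitin ligase genes, 0 passed, 1 was lower and 0 higher at an unadjusted p under 0.05, and the median was -0.0079. That gene was Ikbkg, which encodes NEMO, the regulatory subunit of the IkB kinase complex. It read -1.06, -1.18 and -1.23 in WT and -1.43, -1.48 and -1.56 in KO, where every array lay below every WT array (difference -0.33 ± 0.088 SE, adjusted p = 0.363). The catalytic subunit genes Chuk and Ikbkb, named after their values were seen, differed by -0.17 ± 0.095 and -0.18 ± 0.11 SE (adjusted p = 0.489 and 0.51). Chuk did not overlap between the genotypes and Ikbkb did. Map3k8, which encodes the kinase TPL2 that p105 holds inactive, differed by -0.42 ± 0.22 SE (adjusted p = 0.466) and overlapped. Btrc, which encodes a subunit of the ligase that marks IkB proteins for destruction, differed by 0.16 ± 0.089 SE (adjusted p = 0.476) without overlap. In this list, 1 gene was higher and 2 were lower without overlap, against 19.6% of all genes in either direction.

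Of 16 other inhibitor genes, 0 passed, 1 was higher and 0 lower at an unadjusted p under 0.05, and the median was -0.00071. Nlrc3, which encodes a dampener of TRAF6 signalling, differed by 0.28 ± 0.077 SE (adjusted p = 0.363) with no overlap. Tnip3, which encodes an A20-binding protein, differed by 0.31 ± 0.14 SE (adjusted p = 0.425), also without overlap. Commd1, which encodes a protein that promotes the turnover of RelA, differed by -0.21 ± 0.10 SE (adjusted p = 0.447) and overlapped. Without overlap, 2 genes of the list were higher and 1 was lower, against 19.6% of all genes in either direction.

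Of 36 listed target genes, 35 were found on the array and 28 were tested. None passed (0 of 28), 2 were higher and 1 was lower at an unadjusted p under 0.05, and the median was 0.0086. Ebi3, which encodes a cytokine subunit, read 4.99, 4.97 and 4.64 in WT and 5.20, 5.18 and 5.34 in KO (difference 0.37 ± 0.12 SE, adjusted p = 0.376). Cd83, which encodes a surface protein of activated antigen-presenting cells, differed by 0.68 ± 0.25 SE and overlapped (adjusted p = 0.384). Sod2, which encodes the mitochondrial superoxide dismutase, differed by -0.22 ± 0.088 SE (adjusted p = 0.404) without overlap. Among the targets, 2 were higher and 1 was lower without overlap, against 19.6% of all genes in either direction. The 7 targets well above background on 0 arrays were Il1a, Il6, Csf2, Lta, Ccl20, Cxcl1 and Sele, which encode cytokines, chemokines and an endothelial adhesion molecule. Tnf was well above background on all 6 arrays and differed by -0.15 ± 0.21 SE (adjusted p = 0.764); Tnf and the 7 undetected targets were named after their values were seen.

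**Figure D4:**
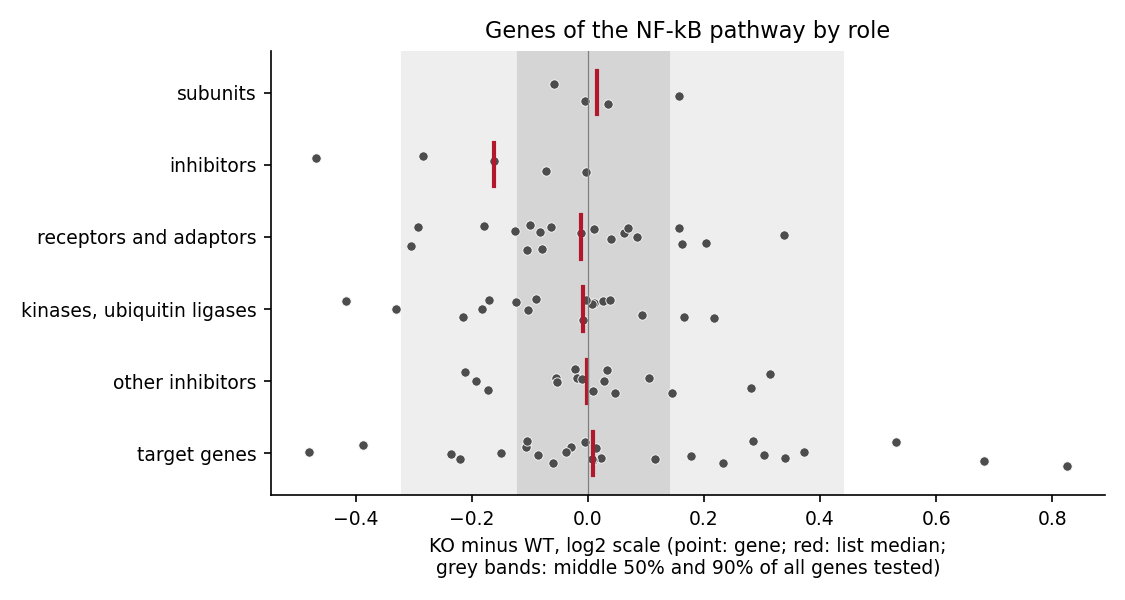
KO minus WT differences on the log2 scale for each tested gene (points) in 6 lists of the pathway, with list medians in red and the middle 50% and 90% of all tested genes as grey bands. The median lies at -0.16 for the 5 inhibitors, at 0.015 for the 4 subunits and between -0.012 and 0.0086 for the other lists.

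Read by group, the 4 tested subunits lay between -0.06 and 0.16 with a median of 0.015. The 5 genes grouped as inhibitors lay between -0.47 and 0.00 with a median of -0.16. The lowest values in that group were those of Nfkbiz and Bcl3, which encode nuclear proteins, and IkB-zeta is itself needed for transcription of some genes. All genes had a 25th percentile of -0.12 and a 75th percentile of 0.14. Summed over the inhibitors, signal was 36.1 to 47.2 in WT and 34.1 to 40.9 in KO, which overlap. Nfkbia alone gave 21.1 to 24.3 of that sum in WT and 18.7 to 23.6 in KO. Summed over the subunits it was 45.6 to 52.3 in WT and 46.7 to 54.2 in KO, which overlap as well. Rela made up most of the subunit sum, and the other 4, with Rel included, summed to 5.01 to 5.81 in WT and 5.3 to 5.72 in KO.

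The spread over arrays was described for each list. The median SD over the 6 arrays was 0.30 for the 28 targets and 0.29 for the 5 inhibitors, beside 0.12 for the 4 subunits and 0.16 for all genes. Of the targets, 11 of 28 (39.3%) lay among the 10% of all genes with the widest spread, which begins at an SD of 0.37. With the other lists, 15 genes of the pathway were in that range, and Tnfaip3 was the only member among them. Of these 15, 10 (66.7%) had their highest WT value on replicate 2 and their highest KO value on replicate 2, beside 17.4% of the 1961 genes of that spread and 10.5% of all 19605 genes. Over the 9 possible pairs of highest arrays, the share of all 19605 genes ran from 8.01% to 18.3%. The monocyte-attracting chemokine gene Ccl2 read -3.70, -2.14 and -3.21 in WT and -4.06, -1.54 and -3.46 in KO. Its low values lay near the detection limit: on KO replicate 1 the lowest value well above background was -4.53. Cxcl2, also among the 15, was well above background on only 2 of the 3 WT arrays. Plaur, which encodes the urokinase receptor, read 3.51, 3.85 and 2.96 in WT and 2.89, 4.45 and 3.33 in KO. Nfkbid, which encodes the nuclear inhibitor IkB-NS, read 4.34, 4.61 and 3.91 in WT and 3.73, 4.80 and 4.26 in KO. In Ccl2, Plaur, Nfkbid and Tnfaip3, the replicate 2 arrays of both genotypes were the 2 highest of the 6. Bcl3 and Rela had their highest values on the replicate 2 arrays too, with a narrower spread. The grouping by spread was made after the values had been seen, and the labels do not say that a replicate number marks a shared sort, litter or day.

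**Figure D5:**
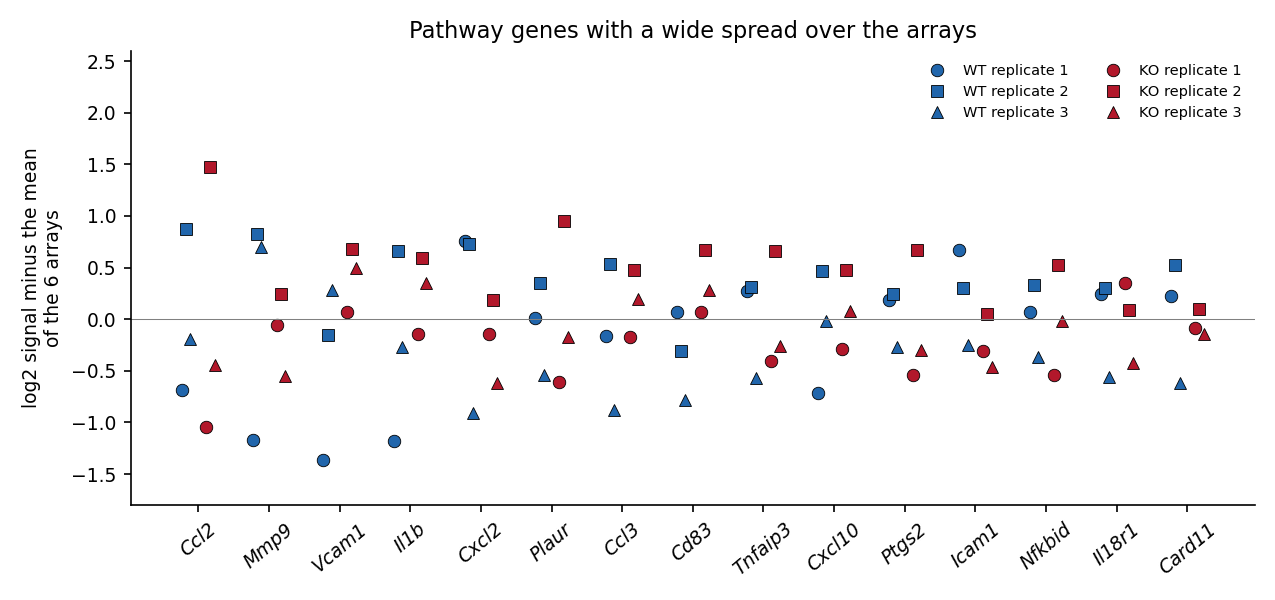
Log2 signal minus the mean of the 6 arrays for the 15 pathway genes among the 10% of all genes with the widest spread (blue WT, red KO; circles, squares and triangles are replicates 1, 2 and 3), ordered by SD from 0.97 to 0.38. Squares, the replicate 2 arrays, are the highest in both genotypes in 10 of the 15 genes.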

How the data were processed

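RNA of sorted cells was labelled with Cy3 and hybridised to 1 array per sample. Agilent Feature Extraction 10.7.3.1 quantified the spots, and the processed signal is an intensity after spatial and multiplicative detrending, with global background correction off, per the file headers. In the deposited value table each array's intensity had been divided by a constant of its own (304.4 to 368.2; column medians 0.06383 to 0.07498), on a linear scale without centring, as set against the scanner values.

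Control spots (3671 of 62976) and outlier spots (92 to 155 per array) were left out. Values were log2 intensity minus the 75th percentile of the array, spots of a probe were averaged, and the brightest probe represented a gene. A gene was kept if it was well above background in every WT array or every KO array and had a value on all 6, which left 19605. The fit used limma 3.58.1 in R 4.3.3 (lmFit, eBayes) with Benjamini-Hochberg adjustment and was tested on simulated data. The number of arrays limits the precision. Positions of probes are those of the scanner files, on mm9; no annotation of that build was used here. Members and gene lists were chosen with earlier results of these data known. All members are named, with the 3 genes of smallest p per list. Alternatives were normalization, background correction, the authors' values, filters, probe choice, slide or replicate number as a block, and each array left out.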

Additional observations from a re-analysis of the deposited data

How the results depend on the processing

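The count of 0 members passing held under all alternatives with a test, and that of 0 member probes under all of these that fitted single probes. Within slide 2 no test was made, and the mean over probes has no count of probes. The member median ran from -0.11 to -0.0056 with each array left out (-0.059 in the comparison as reported). With quantile normalization it was -0.028, with normexp background correction -0.071, and -0.11 and -0.091 within slides 1 and 2. Nfkbiz, Nfkbia, Nfkbie and Bcl3 kept a negative value in all 16 alternatives, with adjusted p from 0.253 to 0.819 for Nfkbiz in limma. Tnfaip3 changed sign in 7, Rela in 5, Nfkb1 in 3, and Nfkb2 and Relb in 1 each. The filters and the 2 blocks cannot change a member's difference, nor can the mean over probes for a gene with 1 probe. Those settings bear only on the SE and p, so an unchanged sign in them is no further support. With the replicate block the median thus stayed at -0.059, and Bcl3 had an SE of 0.10 and an adjusted p of 0.449 in limma. Deviations of same-numbered arrays correlated across genes at -0.025, 0.15 and 0.071, and at most at 0.066, -0.0097 and 0.18 with another number, so replicate 2 alone matched its own number best. The labels name nothing that a number marks, and replicate 3 of both genotypes shares slide 2, so the numbers were not taken to pair the samples. Over all genes, 2 were higher and 2 lower as reported, 5 and 4 with normexp or with the mean over probes, 1 and 0 with quantile normalization or with genes above background on all 6 arrays, 2 and 1 with a slide block, 0 and 0 with the replicate block or no filter, and 0 and 1 within slide 1. With each array left out, 0 to 1 were higher and 0 to 3 lower. Rel was not above background, and 3 arrays per genotype limit the rest.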
